A study of Mus musculus with 6 samples.

Results

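The 46 protein-coding mouse genes whose symbol begins with Nduf mostly encode nuclear subunits of respiratory complex I and a set of its assembly factors. They were taken by symbol and gene type from GENCODE M21, and all 46 were among the 21666 genes counted in 6 RNA-seq libraries of skeletal muscle satellite cells, the stem cells of muscle, after 2 days of differentiation. Of these libraries, 3 came from lncMREF KO mice, which lack a long noncoding RNA that the series title ties to myogenic differentiation, and 3 from WT mice. The labels give no strain, age, deleted interval or number of animals, so each p-value reflects how far the libraries of a genotype differ, and that spread may be technical. By subunit role, 7 members are core subunits, 29 are accessory subunits, 8 are Ndufaf assembly factors and 2 form the Ndufa4 and Ndufa4l2 pair.

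Complex I is the entry point of the mitochondrial respiratory chain. It oxidises NADH in its matrix arm, passes the electrons along iron-sulfur clusters to ubiquinone, and pumps protons through its membrane arm. The core subunits hold the catalytic machinery and are shared with bacteria, the accessory subunits surround and stabilise them, and the assembly factors act on intermediates and are absent from the finished enzyme. The membrane arm also needs subunits encoded in mitochondrial DNA, so the 2 genomes contribute to the same complex. Differentiating muscle cells are known to raise their oxidative capacity as they leave the cell cycle.

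Library totals ran from 17919826 to 23646805 counts in KO and from 20193337 to 28430678 in WT libraries, and the least counted member, Ndufb2, had a mean of 94.2 counts. Levels are given as CPM, counts scaled to a common library size after TMM normalisation, and a gene was called at a Benjamini-Hochberg adjusted p under 0.05 in edgeR's quasi-likelihood test over 15518 genes. The muscle markers Myod1, Myog, Des, Myh3, Acta1 and Ckm together reached 3400 to 3663 CPM in KO and 15480 to 16130 CPM in WT libraries, and all 6 were called lower. Other cell types were present in both genotypes. The 5 endothelial markers summed to 63.1 to 67.3 CPM in KO against 270.3 to 277.8 CPM in WT, the 5 macrophage markers to 267.9 to 273.1 against 89.6 to 95.2, and the 5 Schwann cell markers to 715.3 to 720.2 against 198.6 to 206.1. The 4 proliferation genes summed to 306.6 to 346.7 CPM in KO and 65.6 to 70.1 CPM in WT. The part of these differences in cell makeup in the results was not tested, and in bulk RNA fewer cells of a type and less RNA per cell cannot be told apart.

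The Nduf genes, with the Ndufa4 pair counted among them, moved unevenly in KO cells. Of the 46 members, 21 were called lower and 4 higher, and 21 were not called. Among all genes tested, 33% were called lower and 33.7% higher, against 45.7% and 8.7% of the members. In either direction 66.7% of all genes were called, and among protein-coding genes alone 35.6% were lower and 34.2% higher. The KO libraries lay all below the WT libraries for 17 members and all above for 5, against 69.4% of all genes without overlap in either direction. The median log2 fold change of the members was -0.15, beside 0.02 for all genes tested. With libraries scaled by total counts only, 12 members were lower and 7 higher and their median turned to 0.02, below a median of 0.19 over all genes, while the share of lower genes among all calls was 33.9% in place of 49.5%. Most falls were moderate: only Ndufa4l2 fell by over 2-fold, a size that 9.38% of all genes reached in that direction. Summed over the members, the KO libraries held 2118, 2231 and 2157 CPM and the WT libraries 2681, 2419.5 and 2795 CPM. Those sums did not overlap, with the lowest WT value in replicate 2.

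**Figure D1:**
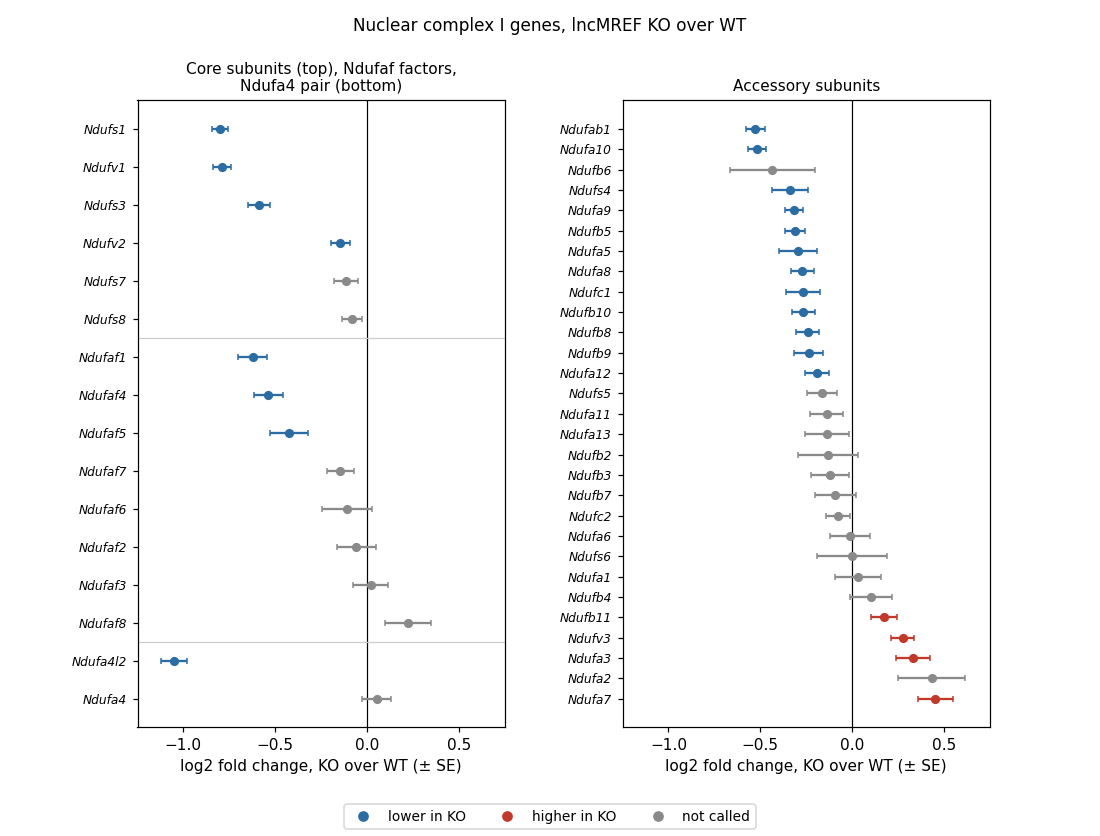
Log2 fold change of KO over WT with its standard error for 45 of the 46 members, core subunits, Ndufaf factors and the Ndufa4 pair on the left and accessory subunits on the right. Blue points were called lower, red points higher and grey points were not called. All 6 core subunits shown lie left of 0, and the 4 called rises are accessory subunits.

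Of the 7 core subunits, 6 are described here. All 6 had negative fold changes, and 4 were called lower and none higher, against 33% lower and 33.7% higher of all genes tested. The direction of Ndufv2, Ndufs7 and Ndufs8 turned positive when libraries were scaled by total counts only, at 0.02, 0.06 and 0.09.

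The electron input module of the matrix arm holds 3 core subunits. Ndufs1, the largest iron-sulfur subunit (ENSMUSG00000025968, mm10 chromosome 1, 63143596 to 63176833), had 117, 122 and 120.3 CPM in KO libraries, against 215, 204 and 207 CPM in WT libraries. Ndufv1, which binds the flavin and oxidises NADH (ENSMUSG00000037916, chromosome 19, 4007384 to 4012806), had 72.0, 80.3 and 81.1 CPM in KO and 137, 129 and 138 CPM in WT libraries. For both genes every KO library lay far below every WT library. Ndufs1 fell by 0.80 on the log2 scale (SE 0.04, adjusted p 5.48e-18) and Ndufv1 by 0.79 (SE 0.05, adjusted p 4.65e-16). Their neighbour Ndufv2, an iron-sulfur subunit (ENSMUSG00000024099, chromosome 17, 66078638 to 66101559), had 84.7, 93.6 and 85.0 CPM in KO against 103, 92.2 and 96.5 CPM in WT. Its groups overlapped, and the fall was smaller, at -0.15 (SE 0.05, adjusted p 0.0127). The Ndufv2 call was lost with total-count scaling (adjusted p 0.698), with GC and length offsets (0.135) and without KO replicate 1, KO replicate 3 or WT replicate 1.

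The quinone module, where electrons pass to ubiquinone, is described here through 3 core subunits. Ndufs3 (ENSMUSG00000005510, chromosome 2, 90894634 to 90904827) had 46.3, 51.6 and 48.8 CPM in KO libraries, against 72.4, 69.2 and 79.0 CPM in WT libraries. Its groups did not overlap, and it fell by 0.59 (SE 0.06, adjusted p 5.83e-11). In the separate count tables of the single libraries, where it had a mean of 43.8 counts against 1384 in the matrix, its sign was opposite and not called (0.41, adjusted p 0.129). In those tables Ndufv1 changed by -1.33 (adjusted p 1.45e-11) and Ndufv2 by -0.92 (adjusted p 0.00139), from mean counts of 226.3 and 59.7. Ndufs7, which carries the last iron-sulfur cluster before ubiquinone (ENSMUSG00000020153, chromosome 10, 80249121 to 80256794), had 41.8, 47.0 and 46.6 CPM in KO and 51.7, 43.8 and 50.7 CPM in WT. Ndufs8, an iron-sulfur subunit next to the membrane (ENSMUSG00000059734, chromosome 19, 3908863 to 3912774), had 63.0, 72.6 and 69.0 CPM in KO and 72.9, 68.9 and 74.6 CPM in WT. Both overlapped between genotypes and were not called, with log2 fold changes of -0.11 (SE 0.07, adjusted p 0.124) and -0.08 (SE 0.06, adjusted p 0.196). Ndufs7 was called lower without WT replicate 2 (-0.19, adjusted p 0.0128), and Ndufs8 was called lower with GC and length offsets (-0.15, adjusted p 0.0114) and without KO replicate 2.

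**Figure D2:**
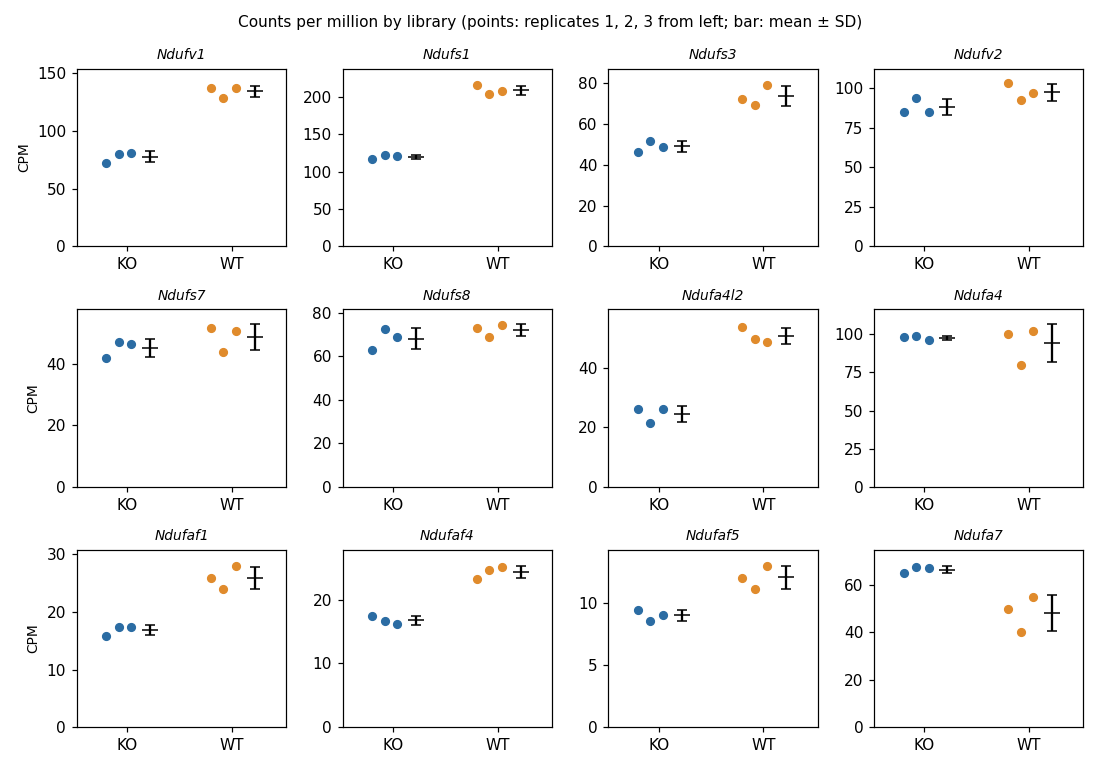
CPM in each library for 6 core subunits, the Ndufa4 pair, 3 assembly factors and the accessory subunit Ndufa7, with KO on the left of each panel, WT on the right, and the mean and SD of 3 libraries as a bar. Each axis starts at 0. Ndufs1 and Ndufv1 separate widely, whereas Ndufs7 and Ndufs8 overlap and Ndufa7 is higher in KO.

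Per kilobase of mRNA, the accessory subunits other than Ndufb2 ranged from 13.9 to 126 CPM in KO and from 16.6 to 104 in WT. The assembly factors were lower, at 4.61 to 16.4 CPM per kilobase in KO and 6.48 to 17.8 in WT. Ndufb2 stood at 0.91 and 1.01 CPM per kilobase in KO and WT, and 72.7% of its coding bases also belong to another annotated gene, so its level depends on how shared reads were counted.

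The accessory subunits split in direction. Of 29, 12 were called lower (41.4%, against 33% of all genes tested), 4 higher (13.8%, against 33.7%) and 13 not called (median -0.14). In 8 of them all KO libraries lay below all WT libraries and in 4 all lay above; over all genes these shares were 34.1% and 35.3%. In 4 of the 12 called falls the groups overlapped.

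The largest called falls were those of Ndufab1 and Ndufa10. Ndufab1, the mitochondrial acyl carrier protein, which also serves lipoate and iron-sulfur cluster synthesis (ENSMUSG00000030869, chromosome 7, 122085403 to 122101886), had 56.5, 56.9 and 57.2 CPM in KO libraries, against 81.8, 77.6 and 86.2 CPM in WT libraries. Ndufa10, a matrix-facing subunit of the proximal membrane arm (ENSMUSG00000026260, chromosome 1, 92439010 to 92473860), had 112, 116 and 99.8 CPM in KO and 162, 149.5 and 159 CPM in WT. The falls were nearly equal, at -0.53 and -0.52 (SE 0.05 each, adjusted p 8.62e-11 and 7.29e-11). Of the coding bases of Ndufab1, 26.3% also belong to the gene Gm44986 on the opposite strand. Ndufb6 in the distal membrane arm (ENSMUSG00000071014, chromosome 4, 40270591 to 40279421) had 21.3, 23.6 and 29.4 CPM in KO and 31.7, 26.0 and 41.3 CPM in WT. Its spread within each genotype was wide and it was not called (-0.44, SE 0.23, adjusted p 0.169), and 39% of its exonic bases are shared with an antisense neighbour. Under GC and length offsets Ndufb6 was called lower (-0.55, adjusted p 0.0499).

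Next in size were 3 subunits that were called lower and did not overlap. Ndufs4, which joins the input and quinone modules and whose loss causes a Leigh-like disease in mice (ENSMUSG00000021764, chromosome 13, 114287795 to 114388258), had 47.1, 49.0 and 42.5 CPM in KO and 56.6, 50.9 and 67.6 CPM in WT libraries, a change of -0.34 (SE 0.10, adjusted p 0.0114). Ndufa9, a nucleotide-binding subunit of the quinone module (ENSMUSG00000000399, chromosome 6, 126821721 to 126849136), had 75.4, 76.2 and 77.8 CPM in KO and 96.8, 89.9 and 98.3 CPM in WT. Ndufb5 of the distal arm (ENSMUSG00000027673, chromosome 3, 32736990 to 32751566) had 51.8, 52.3 and 52.3 CPM in KO and 66.8, 61.0 and 66.0 CPM in WT. KO libraries were tightly grouped for both, and Ndufa9 changed by -0.32 and Ndufb5 by -0.31 (SE 0.05 and 0.06, adjusted p 1.06e-06 and 7.49e-06). Of the coding bases of Ndufb5, 21.9% also belong to Mrpl47 on the opposite strand. The Ndufs4 call was lost with total-count scaling (adjusted p 0.165) and without KO replicate 1. In the single-library tables, with a mean of 124.8 counts against 1188 in the matrix, Ndufs4 changed by -2.64 (adjusted p 5.66e-15), and Ndufa9 changed by -0.65 there (adjusted p 0.000467).

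The 4 subunits called higher came from 3 regions of the complex. Ndufa7 of the input module (ENSMUSG00000041881, chromosome 17, 33824572 to 33838317) had 64.8, 67.3 and 67.2 CPM in KO libraries, against 49.9, 40.0 and 54.9 CPM in WT libraries. Ndufv3, also of the input module (ENSMUSG00000024038, chromosome 17, 31520115 to 31531331), had 48.4, 49.7 and 44.3 CPM in KO and 38.9, 36.6 and 42.2 CPM in WT. Ndufa3 of the proximal membrane arm (ENSMUSG00000035674, chromosome 7, 3617373 to 3620327) had 16.4, 17.7 and 16.6 CPM in KO and 14.3, 11.6 and 14.2 CPM in WT. Every KO library exceeded every WT library in these 3 genes, and the rises were 0.45 for Ndufa7 (SE 0.09, adjusted p 0.00134), 0.27 for Ndufv3 (SE 0.06, adjusted p 0.000305) and 0.33 for Ndufa3 (SE 0.09, adjusted p 0.00194). In the single-library tables Ndufa7, with a mean of 34.7 counts against 1291 in the matrix, was called lower (-1.56, adjusted p 5.87e-05), and Ndufa3 was not called (0.28, adjusted p 0.078). X-linked Ndufb11 of the distal arm (ENSMUSG00000031059, chromosome X, 20615326 to 20617619) had 54.5, 54.9 and 52.38 CPM in KO against 49.98, 40.7 and 52.36 CPM in WT, a rise of 0.17 (SE 0.07, adjusted p 0.036). The Ndufb11 call did not hold after dropping WT replicate 2 (0.06, adjusted p 0.386) or any 1 KO library, nor under GC and length offsets (adjusted p 0.161) or DESeq2.

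Ndufa2 of the input module (ENSMUSG00000014294, chromosome 18, 36742332 to 36744557) had 38.6, 43.3 and 32.8 CPM in KO and 28.1, 22.9 and 33.7 CPM in WT libraries. The groups overlapped at 1 library each and it was not called (0.43, SE 0.18, adjusted p 0.0921), but a rise was called under GC and length offsets (0.37, adjusted p 0.0288), total-count scaling and DESeq2, and after dropping KO replicate 3, WT replicate 3 or WT replicate 2 (0.30, adjusted p 0.0294 for the last). Ndufb4 of the distal arm (ENSMUSG00000022820, chromosome 16, 37647170 to 37654453) had 24.6, 22.3 and 21.9 CPM in KO and 20.2, 17.6 and 25.8 CPM in WT, and was not called (0.10, SE 0.12, adjusted p 0.454). It was called higher without WT replicate 3 (0.26, adjusted p 0.0117), and its sign turned without WT replicate 2 (-0.02).

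The other 17 accessory subunits had log2 fold changes between -0.30 and 0.03, and 7 of them were called lower (adjusted p 0.000383 to 0.0214) and none higher. These 7 were Ndufa5, Ndufa8, Ndufc1, Ndufb10, Ndufb8, Ndufb9 and Ndufa12. With total-count scaling none of the 7 was called (adjusted p 0.159 to 0.786). Calls were also lost after dropping single libraries, for Ndufa5 (KO replicate 1, KO replicate 3 or WT replicate 1), Ndufc1 (KO replicate 1, WT replicate 1 or WT replicate 3), Ndufb9 (KO replicate 1 or WT replicate 3) and Ndufa12 (KO replicate 2 or WT replicate 3). Ndufs5, Ndufa11, Ndufa13, Ndufb2, Ndufb3, Ndufb7, Ndufc2, Ndufa6, Ndufs6 and Ndufa1 were not called. Under GC and length offsets Ndufs5 (-0.28, adjusted p 0.000179), Ndufa11 (-0.19, 0.016), Ndufb3 (-0.19, 0.0289) and Ndufc2 (-0.19, 0.00454) were called lower, and Ndufs5 also with no filter on low counts (adjusted p 0.0186). In the single-library tables Ndufb10 and Ndufa6 were called higher (0.53 and 2.14, adjusted p 9.04e-06 and 1.91e-07), as was Ndufb2 (0.56, adjusted p 0.0059). By position, 9 of the 16 matrix arm subunits, core and accessory together, were called lower and 2 higher (56.2% and 12.5%, median -0.17). Of the 19 accessory subunits of the membrane arm, 7 were lower and 2 higher (36.8% and 10.5%, median -0.14). Among all genes tested, 33% were lower and 33.7% higher, so the membrane arm share of falls was near that of all genes. No difference between arms was tested.

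Of the 8 Ndufaf assembly factors, 3 were called lower (37.5%, near the 33% of all genes tested) and none higher (against 33.7%). The median was -0.13. All KO libraries lay below all WT libraries in 4 factors and above in 1, against 34.1% and 35.3% of all genes. Ndufaf1, a scaffold of the complex that builds the proximal membrane arm (ENSMUSG00000027305, chromosome 2, 119655446 to 119662827), had 15.8, 17.4 and 17.3 CPM in KO libraries, against 25.8, 24.0 and 27.8 CPM in WT libraries. Ndufaf4, which acts with Ndufaf3 on the quinone module (ENSMUSG00000028261, chromosome 4, 24898083 to 24905001), had 17.4, 16.6 and 16.1 CPM in KO and 23.2, 24.6 and 25.1 CPM in WT. Ndufaf5, which hydroxylates an arginine of Ndufs7 (ENSMUSG00000027384, chromosome 2, 140170649 to 140203689), had 9.47, 8.60 and 9.01 CPM in KO and 12.02, 11.2 and 13.0 CPM in WT. None of the 3 overlapped between genotypes, and they changed by -0.62 for Ndufaf1 (SE 0.08, adjusted p 1.64e-08), -0.54 for Ndufaf4 (SE 0.08, adjusted p 2e-07) and -0.43 for Ndufaf5 (SE 0.10, adjusted p 0.000525).

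The other 5 factors were not called. Ndufaf7, an arginine methyltransferase acting on a complex I subunit (ENSMUSG00000024082, chromosome 17, 78937136 to 78948052), had 20.7, 22.4 and 21.6 CPM in KO and 25.4, 23.0 and 23.1 CPM in WT libraries, without overlap (-0.15, SE 0.07, adjusted p 0.0859). Ndufaf8, the partner of Ndufaf5 (ENSMUSG00000078572, chromosome 11, 120098928 to 120100705), had 8.65, 8.76 and 9.12 CPM in KO and 8.28, 5.84 and 8.40 CPM in WT, also without overlap (0.22, SE 0.12, adjusted p 0.117). Ndufaf8 was called higher with total-count scaling (0.39, adjusted p 0.00601), and without WT replicate 2 its fold change was 0.07. Ndufaf7 and Ndufaf8 each had 1 WT library apart from the other 2, replicate 1 for Ndufaf7 and replicate 2 for Ndufaf8. Ndufaf3, the partner of Ndufaf4 (ENSMUSG00000070283, chromosome 9, 108565537 to 108567434), had 11.8, 13.5 and 14.1 CPM in KO and 12.6, 12.5 and 13.5 CPM in WT (0.02, SE 0.10, adjusted p 0.863). Ndufaf6 (ENSMUSG00000050323, chromosome 4, 11051045 to 11076205) had 6.30, 7.25 and 5.96 CPM in KO and 8.32, 5.90 and 6.83 CPM in WT (-0.11, SE 0.13, adjusted p 0.488). Both overlapped between genotypes. Ndufaf2, a relative of the subunit Ndufa12 (ENSMUSG00000068184, chromosome 13, 108002715 to 108158623), had 11.2, 12.03 and 10.2 CPM in KO and 11.7, 9.79 and 13.1 CPM in WT, also overlapping (-0.06, SE 0.11, adjusted p 0.645), and 65.6% of its exonic bases are shared with an antisense RNA. The fold changes of Ndufaf7, Ndufaf6 and Ndufaf2 turned positive with total-count scaling.

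The 250 bases before the RefSeq start are shown for the 3 assembly factors that fell, followed by 3 of the subunits that rose, to set promoters of members that moved apart side by side (build GRCm38.p6, 5′ to 3′ on the gene's strand). Capitals mark 4 motifs on either strand: the NRF1 palindrome that begins GCGCA, the ETS core CCGGAAG, the GC box GGGCGG and the TATA box TATAAA.
Ndufaf1, chr2:119662835-119663084, minus strand: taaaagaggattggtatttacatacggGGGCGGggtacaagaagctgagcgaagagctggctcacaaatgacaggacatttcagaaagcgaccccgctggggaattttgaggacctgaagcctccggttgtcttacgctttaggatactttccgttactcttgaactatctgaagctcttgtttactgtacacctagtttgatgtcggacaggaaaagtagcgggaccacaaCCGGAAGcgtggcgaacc
Ndufaf4, chr4:24897833-24898082, plus strand: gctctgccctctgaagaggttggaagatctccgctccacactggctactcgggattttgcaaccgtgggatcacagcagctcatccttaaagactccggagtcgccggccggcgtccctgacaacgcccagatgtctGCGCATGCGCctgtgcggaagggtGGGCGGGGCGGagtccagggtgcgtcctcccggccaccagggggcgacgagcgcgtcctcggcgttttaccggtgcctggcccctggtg
Ndufaf5, chr2:140170396-140170645, plus strand: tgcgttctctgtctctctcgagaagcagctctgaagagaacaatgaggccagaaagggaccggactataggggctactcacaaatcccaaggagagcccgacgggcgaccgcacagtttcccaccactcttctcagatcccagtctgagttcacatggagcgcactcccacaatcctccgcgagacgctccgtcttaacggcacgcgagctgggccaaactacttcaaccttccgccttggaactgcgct
Ndufa7, chr17:33824322-33824571, plus strand: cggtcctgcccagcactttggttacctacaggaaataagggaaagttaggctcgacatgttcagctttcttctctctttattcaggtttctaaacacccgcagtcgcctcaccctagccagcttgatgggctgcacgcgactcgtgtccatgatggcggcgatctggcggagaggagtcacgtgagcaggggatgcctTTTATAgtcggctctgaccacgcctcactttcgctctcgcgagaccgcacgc
Ndufv3, chr17:31519865-31520114, plus strand: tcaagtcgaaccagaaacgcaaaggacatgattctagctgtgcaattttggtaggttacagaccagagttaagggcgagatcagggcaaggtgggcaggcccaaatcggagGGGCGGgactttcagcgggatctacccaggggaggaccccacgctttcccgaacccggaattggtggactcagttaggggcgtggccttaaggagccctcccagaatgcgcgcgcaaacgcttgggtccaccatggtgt
Ndufa3, chr7:3617123-3617372, plus strand: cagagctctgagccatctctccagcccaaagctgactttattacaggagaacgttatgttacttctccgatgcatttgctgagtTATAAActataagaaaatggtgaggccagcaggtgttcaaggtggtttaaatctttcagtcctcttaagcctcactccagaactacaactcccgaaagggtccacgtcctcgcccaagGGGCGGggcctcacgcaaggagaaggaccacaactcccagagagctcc

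Ndufaf4 held an NRF1 site whose first letter lay 113 bases before the start and overlapping GC boxes 89 and 84 bases before it. Ndufaf1 held an ETS core at 18 bases and a GC box at 223 bases. Ndufa7 and Ndufa3 each held a TATA string, at 52 bases on the opposite strand and at 166 bases on the gene's own strand. The search set no limit on strand, or on distance within the 250 bases, so a match need not be a working TATA box. Ndufa3 and Ndufv3 each held a GC box, at 48 and 139 bases. Ndufaf5 held none of the 4 in these 250 bases. NRF1 and the ETS factor GABPA are known activators of nuclear genes for the respiratory chain.

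A RefSeq window of 300 bases, 250 before the start and 50 after it, was matched for 40 of the 46 members. A member was counted if any of its windows held the motif, whereas the share of all windows counts each window. The shares differ in unit, and several windows of a gene can raise the member share. NRF1 sites occurred in 3 of the 40 (Ndufa11, Ndufaf4 and Ndufaf5), or 7.5%, against 0.971% of all 32851 windows. The Ndufaf5 site lay outside the 250 bases shown for that gene. The longer YY1 site that begins AAGATGG occurred in 5 (Ndufa9, Ndufaf8, Ndufs4, Ndufs6 and Ndufs7), or 12.5% against 0.633%. GC boxes were found in 52.5% of the members and 35.7% of all windows, ETS cores in 15% and 8.86%, the ERR half-site AAGGTCA in 7.5% and 4.72%, the E-box CAGCTG in 10% and 16.3%, and TATA boxes in 10% and 13.6%. The NRF1, YY1, GC box, ETS, ERR, E-box and TATA strings were searched on both strands, no test was made, and a match is not evidence of binding.

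Ndufa4 and Ndufa4l2 encode related small proteins of the inner membrane. Ndufa4 was first described in complex I and is now placed with cytochrome c oxidase, and Ndufa4l2 is a known target of the hypoxia-inducible factor. Ndufa4l2 (ENSMUSG00000040280, chromosome 10, 127514967 to 127517154) had 26.1, 21.5 and 26.1 CPM in KO libraries, against 53.7, 49.7 and 48.6 CPM in WT libraries. It fell 2.07-fold, the largest change among the members (log2 fold change -1.05, SE 0.07, adjusted p 5.35e-15). Ndufa4 (ENSMUSG00000029632, chromosome 6, 11900292 to 11907497) had 98.3, 98.7 and 96.3 CPM in KO and 100.1, 79.9 and 102 CPM in WT, and was not called (0.05, SE 0.08, adjusted p 0.59). It was called higher with total-count scaling (0.22, adjusted p 0.0323), and without WT replicate 2 its fold change was -0.06.

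WT replicate 2 stood apart in this gene family. It was the lowest of the 3 WT libraries for 43 of 46 members, and WT replicate 3 was the highest for 35. Over all tested genes, WT replicate 2 was the lowest in 36.4% and WT replicate 3 the highest in 32.8%. The median member lay 0.14 below its WT mean in replicate 2 and 0.11 above it in replicate 3, on the log2 scale. Mitochondrially encoded RNA had its largest share in the same library, at 4.18% of counts, against 3.97% and 4.01% in the other two WT libraries.

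Without WT replicate 2, 29 members were called lower and 4 higher, and their median was -0.25. Among all genes tested in that fit, 31.7% were called lower and 31.1% higher. Ndufs7, Ndufb6, Ndufs5, Ndufa11, Ndufa13, Ndufb3, Ndufb7 and Ndufc2 joined the falls, with adjusted p-values of 0.000173 to 0.0432, Ndufa2 joined the rises and Ndufb11 left them. Without KO replicate 1, 16 members were called lower and 3 higher, beside 31.1% of all genes tested in each direction.

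**Figure D3:**
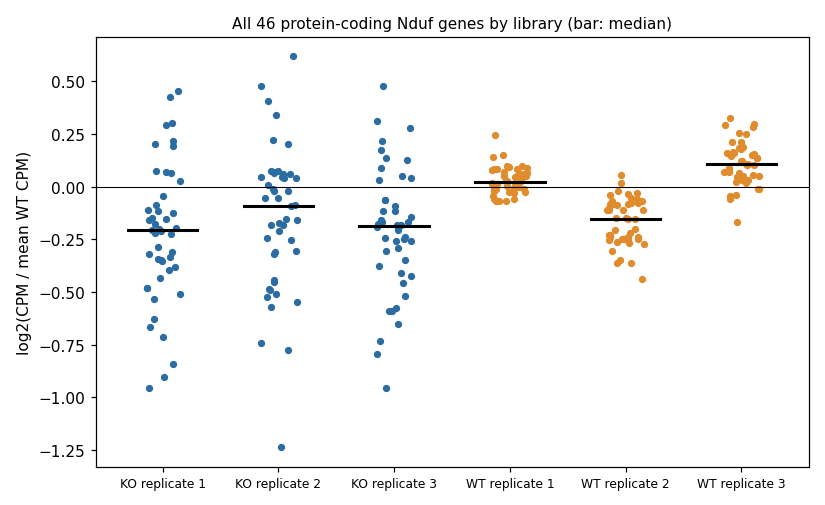
Log2 of CPM over the WT mean for each of the 46 members in each library, KO on the left and WT on the right, with the median as a bar. WT replicate 2 has a median of -0.14 and WT replicate 3 of 0.11, and the KO medians run from -0.20 to -0.08.

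Fold change was related to mRNA length within the family. Across the 46 members the Spearman correlation of log2 fold change with the length of the principal mRNA was -0.55. With exonic length, the measure available for all genes, it was -0.35 across the members and -0.074 over 15506 tested genes. The points share the same 6 libraries, and no p is given. Of the 23 members with mRNA longer than 977 bases, 15 were called lower and 1 higher (65.2% and 4.35%, median -0.31). Of the 23 shorter ones, 6 were lower and 3 higher (26.1% and 13%, median -0.08). The shares over all genes tested were 33% lower and 33.7% higher. Ndufs1, Ndufa10 and Ndufab1, which fell, have mRNAs of 2661, 2020 and 3479 bases, whereas Ndufa7 and Ndufa3, which rose, have 528 and 515 bases. Other members go against the trend. Ndufa4l2, with the largest fall, has 934 bases, Ndufv3, which rose, has 1582, and Ndufb2, the longest at 4371, was not called. The relation with length was not separated from the split into core, accessory and Ndufaf classes.

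Library differences followed length as well. The deviation of WT replicate 2 from the other two WT libraries correlated with mRNA length at 0.74 (Spearman, 46 members), with a median of -0.12 for the longer and -0.34 for the shorter group. Without that library the correlation of fold change with mRNA length was -0.44. With offsets fitted to GC content and exonic length over all genes it was also -0.44. The medians of the longer and shorter groups were then -0.36 and -0.18 without WT replicate 2, and -0.30 and -0.11 with the offsets. The offsets used exonic length, not the mRNA length of the correlation, and a correction for mRNA length itself was not tested.

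**Figure D4:**
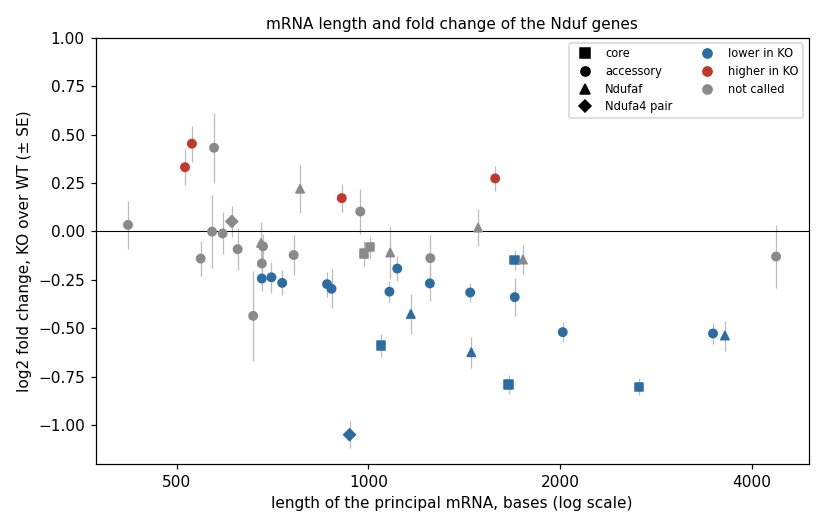
Log2 fold change of KO over WT with its SE against the length of the principal mRNA (log scale) for 45 of the 46 members, with shapes for the class and colours for the call. The 3 called rises other than Ndufv3 lie below 977 bases, and Ndufa4l2, at 934 bases, is the lowest point.

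Complex I genes outside the Nduf symbols were described from lists of the same pathway. All 7 complex I genes of mitochondrial DNA were called lower, each by over 2-fold, with a median of -1.38. Among all genes tested, 33% were called lower and 9.38% lower by over 2-fold. They summed to 6513 to 7404 CPM in KO and 16140 to 17760 CPM in WT libraries. mt-Nd5 of the distal pump averaged 2042 ± 133 CPM in KO and 5623 ± 391 CPM in WT cells (SD, n = 3 each; log2 fold change -1.46, SE 0.05), mt-Nd2 averaged 1221 ± 115 and 3172 ± 296 CPM (-1.38, SE 0.10), mt-Nd1 beside the quinone site 2097 ± 210.1 and 4228 ± 40.0 CPM (-1.01, SE 0.05), mt-Nd4 1108 ± 31.3 and 2585 ± 107 CPM (-1.22, SE 0.04) and mt-Nd6 438 ± 16.5 and 1118 ± 63.4 CPM (-1.35, SE 0.04). mt-Nd4l and mt-Nd3 were low, at 5.49 and 0.483 CPM in KO and 25.5 and 1.28 CPM in WT cells, and fell by 2.24 and 1.44. No KO library reached a WT library in any of the 7. Nuclear copies of mitochondrial DNA could take part of their reads.

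Among 14 measured assembly factors with other symbols, 4 were called lower and 2 higher (median -0.11). These shares were 28.6% and 14.3%, against 33% and 33.7% of all genes tested. Aifm1, a flavoprotein needed for complex I biogenesis, averaged 47.1 ± 2.86 CPM in KO and 84.0 ± 0.427 CPM in WT cells (SD, n = 3 each), a change of -0.83 (SE 0.05, adjusted p 1.2e-15). Ecsit, a partner of Ndufaf1, changed by -0.49 and Tmem70 by -0.47 (adjusted p 1.59e-06 and 9.79e-09), and 24% of the exonic bases of Ecsit are shared. Tmem126b, in the same assembly complex, changed by -0.20, whereas its other partner Acad9 was not called (-0.11, adjusted p 0.121). Nubpl, which delivers iron-sulfur clusters, and Dmac2 rose by 0.42 and 0.33 (adjusted p 0.0202 and 0.00513), and Nubpl was at 4.89 CPM in KO and 3.66 CPM in WT.

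Of 15 regulators of mitochondrial biogenesis, 10 were called lower and 1 higher (median -0.36). These shares were 66.7% and 6.67%, against 33% and 33.7% of all genes tested. The coactivator Ppargc1a averaged 3.16 ± 0.759 CPM in KO and 15.3 ± 0.665 CPM in WT cells (SD, n = 3 each), a change of -2.28 (SE 0.13, adjusted p 2.93e-17). The nuclear receptor Esrrb was at 0.652 and 12.6 CPM in KO and WT (-4.26), and Ppara at 0.741 and 2.36 CPM (-1.66). Nrf1, whose protein binds the NRF1 site above, was not called at 38.7 ± 0.765 CPM in KO and 36.0 ± 1.503 CPM in WT (0.11, SE 0.06, adjusted p 0.132). Gabpa, Yy1 and Esrra, for factors of the ETS, YY1 and ERR sites, were called lower. They changed by -0.28, -0.16 and -0.56 (adjusted p 1.67e-05, 0.00218 and 3.77e-09), whereas Gabpb1 was not called (-0.13, adjusted p 0.122). The only regulator called higher was Perm1 (0.37, adjusted p 0.0329), named after its value was seen.

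Of the nuclear subunits of complexes II to V, 24 were called lower and 4 higher of 46, with a median of -0.28. These shares were 52.2% and 8.7%, against 33% and 33.7% of all genes tested. Complex II fell throughout, 4 of 4 with a median of -0.55, led by Sdha (-0.86), Sdhd (-0.59) and Sdhc (-0.50). In complex III 6 of 9 were lower and none higher (median -0.29), led by Uqcrfs1 (-0.81), Cyc1 (-0.78) and Uqcrc1 (-0.74). Complex IV had 5 lower and 2 higher of 16 (median -0.15), with the muscle isoforms Cox6a2 (-1.54) and Cox7a1 (-1.45) lowest and Cox4i2 at -0.71. Complex V had 9 lower and 2 higher of 17 (median -0.27), led by Atp5g3 (-0.82), Atp5b (-0.61) and Atp5a1 (-0.60). Among 77 mitochondrial ribosomal protein genes 24 were lower and 26 higher (median 0.01). Differences between these lists and the Nduf genes were not tested.

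**Figure D5:**
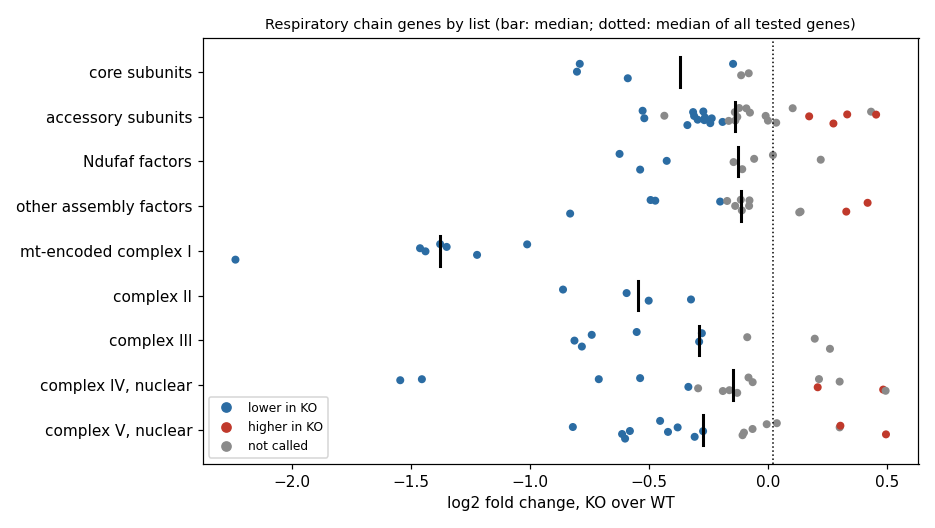
Log2 fold change of KO over WT for the genes of the complex I classes (6 of the 7 core subunits), the other assembly factors, the mitochondrially encoded complex I genes and nuclear complexes II to V, with the list median as a bar and the median of all tested genes, 0.02, as a dotted line. The mitochondrially encoded genes, at -2.24 to -1.01, lie below every nuclear Nduf gene shown. The Ndufa4 pair is not shown, and the -1.05 of Ndufa4l2 falls inside the range of the mitochondrially encoded genes.

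Some Nduf symbols name genes of other types that were not members. Ndufb1-ps, listed as a noncoding RNA in GENCODE M21 and as the protein-coding Ndufb1 in RefSeq, averaged 17.7 ± 1.68 CPM in KO and 16.3 ± 2.80 CPM in WT (SD, n = 3 each) and was not called (0.11, SE 0.10, adjusted p 0.354). The processed pseudogene Ndufab1-ps was at 2.81 and 5.10 CPM in KO and WT and was called lower (-0.87, SE 0.17, adjusted p 4e-05). Ndufab1-ps may take reads from Ndufab1, and Ndufs6b and Ndufb4c, at 0.918 to 1.77 CPM, from Ndufs6 and Ndufb4.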

How the data were processed

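The series holds gene counts of 3 KO and 3 WT libraries. Raw counts per Ensembl gene were deposited by the authors as a matrix of 21666 genes and as a table of 55359 genes per library. HISAT2 2.2.1, featureCounts 2.0.1 and mm10 are named, per the submitters' processing notes; neither the annotation release nor the strand setting is stated there. The matrix was the main source. Of the 46 members, 6 had a mean per-library-table count within 0.8 to 1.25 times that in the matrix, and 30 had one under 10. Symbols, coordinates and exonic overlaps (bedtools 2.31.1) come from GENCODE M21, which matched 21632 genes. Matrix genes passing filterByExpr (minimum count 10, total 15; 15518 genes, all 46 members) were tested with edgeR 4.0.16 in R 4.3.3 (TMM, robust quasi-likelihood F-test, genotype only). The SE is the log2 fold change over the square root of F. Replicate pairs differed by a mean chi-square of 3.18 to 5.11 per gene, so none was merged. The biological coefficient of variation was 4.91%. The mRNA length is that of the longest transcript at the best APPRIS level. Fits were tested on simulated data in which few genes changed, with as many rises as falls. Such data cannot check the scaling where most genes are called. Alternatives were median-of-ratios and total-count scaling, other filters, DESeq2 1.42.0, limma voom 3.58.1, a replicate block, the per-library tables, leaving out each library, and offsets for GC and length. A core subunit is not reported here but counts in the totals over all members. The other core subunits, Ndufaf and Ndufa4 pair genes were given in full. So were the 6 accessory subunits of largest fall and 6 of largest rise. All mitochondrially encoded complex I genes and up to 3 genes per other list were also given. Tmem126b, Acad9, Nubpl, Dmac2, Nrf1, Gabpa, Gabpb1, Yy1, Esrra and Perm1 were named in addition, after their values were seen. The members and lists were chosen with earlier results of these data known.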

Additional observations from a re-analysis of the deposited data

How the results depend on the processing

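Over the 14 alternatives run on the matrix, 12 of the 21 members called lower and 3 of the 4 called higher kept their call, among them Ndufs1, Ndufv1, Ndufs3, Ndufab1, Ndufa10, Ndufa9, Ndufb5, Ndufaf1, Ndufaf4, Ndufaf5, Ndufa4l2, and Ndufa7, Ndufv3 and Ndufa3. With total-count scaling 12 members were called lower and 7 higher, the median of the members was 0.0245, and calls over all genes were 33.9% lower in place of 49.5%. The fold changes that turned positive there were those of Ndufs5 (0.0049), Ndufa11 (0.0308), Ndufa13 (0.0329), Ndufb2 (0.041), Ndufb3 (0.0489), Ndufb7 (0.0793), Ndufc2 (0.094), Ndufa6 (0.16), Ndufs6 (0.17), Ndufaf7 (0.0255), Ndufaf6 (0.0618), Ndufaf2 (0.11), Ndufv2 (0.0235), Ndufs7 (0.0573) and Ndufs8 (0.0891). Leaving out 1 library gave 9766 to 10151 calls over all genes, 16 to 29 members lower, 3 to 6 higher and a median from -0.25 to -0.13. The shares of all genes called there were 31.1% to 31.7% lower and 30.5% to 31.8% higher. Fold changes that crossed 0 among those fits ranged from -0.23 to 0.0176 for Ndufb3, -0.13 to 0.0639 for Ndufa6, -0.18 to 0.17 for Ndufs6, -0.12 to 0.21 for Ndufa1, -0.0193 to 0.26 for Ndufb4, -0.22 to 0.0168 for Ndufaf6, -0.17 to 0.037 for Ndufaf2, -0.0314 to 0.0878 for Ndufaf3 and -0.0618 to 0.10 for Ndufa4. Ndufa6 was 0.005 and Ndufs6 0.0147 with a minimum count of 50, Ndufs6 0.0142 with limma voom, and Ndufa1 -0.0365 and Ndufaf3 -0.0071 with GC and length offsets, where 26 members were called lower and 4 higher. With those offsets 31% of all genes tested were lower and 36.4% higher. The 27 members with no shared exonic base, a choice made after seeing the data, held 12 called lower and 2 higher with a median of -0.15. These were 44.4% and 7.41%, against 33% and 33.7% of all genes tested. The per-library tables gave 5436 calls over all genes (27.8% of those tested lower and 27.3% higher). Among 16 members tested there, 7 were lower and 3 higher, with opposite signs for Ndufb10 (0.53), Ndufa11 (0.18), Ndufb2 (0.56), Ndufa6 (2.14), Ndufa7 (-1.56) and Ndufs3 (0.41). Of the 6 members whose counts matched there, Ndufaf4 (-0.52), Ndufa5 (-0.28), Ndufb6 (-0.41), Ndufaf6 (-0.10) and Ndufa4 (0.04) had the sign of the matrix and Ndufb2 did not. The cause of these changes was not tested. With the replicate number as a block, 22 members were called lower and 4 higher, Ndufb6 among the lower (-0.41, adjusted p 7.23e-05), and Ndufs6 was 0.0262; same-numbered KO and WT libraries deviated together at -0.03 to -0.004 (correlation across genes), so the numbers were not taken as pairs. The least counted member, Ndufb2, had a mean of 94.2 counts and an SE of 0.16.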
